A study of Rattus norvegicus with 10 samples.

Results

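The secreted Wnt antagonists are proteins that cells release to keep Wnt ligands from signalling. The 8 genes described here are the frizzled-related genes Sfrp1, Sfrp2, Sfrp4 and Frzb, the Dickkopf genes Dkk1, Dkk2 and Dkk3, and Wif1. They were chosen by gene symbol in the platform annotation, and 7 of the 8 have a named probeset among the 15037 genes named on the array. Wif1 has none and is not analysed here. The genes were put together with the difference between the study's groups already known, so their own differences are given as a description, without a test.

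Wnt proteins bind Frizzled receptors and the co-receptors Lrp5 and Lrp6 at the cell surface, and beta-catenin then builds up and enters the nucleus to switch on target genes with TCF/LEF factors. Frizzled-related proteins carry a copy of the cysteine-rich domain of the Frizzled receptors and bind Wnt ligands outside the cell, as does Wif1 with a domain of its own. Dickkopf proteins act elsewhere: Dkk1 and Dkk2 occupy Lrp5 and Lrp6, while Dkk3 is a divergent relative whose place in the pathway is less settled. In cartilage and the intervertebral disc, Wnt activity is tied to matrix turnover, and Frzb was found as a cartilage protein.

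RNA came from nucleus pulposus cells, the cells of the disc's soft core, isolated from male Sprague Dawley rats aged 3 to 4 months. Both groups received a lentivirus and were collected 4 days after transduction. ShCtrl (5 arrays, numbered 1 to 5 in the titles) carried the control hairpin in pLKO.1, and ShBNIP3 (5 arrays, numbered 6 to 10) carried a hairpin against Bnip3, a receptor that marks mitochondria for removal. Nothing in the labels ties the arrays of a group to separate cultures or rats, and the p-values below reflect only array-to-array spread, which may be technical. Levels are the authors' normalized log2 values, and differences are ShBNIP3 minus ShCtrl.

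Array medians lay between 6.18 and 6.22. The targeted gene Bnip3 was at 14.61 ± 0.79 on the ShCtrl arrays and 11.40 ± 0.77 on the ShBNIP3 arrays (SD, n = 5 each). It fell to 10.8% of the control level (limma adjusted p = 0.00020, exact two-sided permutation p = 0.0079, the smallest possible here). ShCtrl array 4 and ShBNIP3 array 10 stood apart, with a mean correlation of 0.983 and 0.986 to the rest of their groups, where the other arrays reached 0.992. Bnip3 itself was highest within its group on both, at 15.97 and 12.68, so the members' results and the counts that move are also given without them. Of the defining nucleus pulposus markers, the keratins Krt8, Krt18 and Krt19, the notochord factor Tbxt and Shh and Noto were at background on all 10 arrays, while aggrecan (Acan), Col2a1, Car3 and Ncam1 were above it. Over all 23188 probesets tested, 15.5% were called at a limma adjusted p under 0.05 (7.61% higher in ShBNIP3 and 7.87% lower), and 12.9% had groups that did not overlap. The array medians lay under the background level of 6.50 to 6.78, so these shares include many probesets at background. In a separate fit of the brighter 50% of probesets, 3909 of 11594 were called.

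Promoter sequences are shown for the members that the reference holds and the results turn on: Sfrp2 and Frzb, which were both lower in ShBNIP3, and Dkk1, which was at background. Each runs from 250 bases before to 50 bases after the RefSeq start of the gene in assembly GRCr8 and is written from 5′ to 3′ on the gene's strand. Capitals mark matches, on either strand, to CTTTGA (TCF/LEF), ACGTG or GCGTG (hypoxia response element), TGANTCA (AP-1) and TATAAA (a core promoter element), and no match in these windows overlaps another. The Sfrp2 window is at chr2:171387286-171387585, forward strand, that of Frzb at chr3:85772047-85772346, reverse strand, and that of Dkk1 at chr1:237798601-237798900, reverse strand.
Sfrp2: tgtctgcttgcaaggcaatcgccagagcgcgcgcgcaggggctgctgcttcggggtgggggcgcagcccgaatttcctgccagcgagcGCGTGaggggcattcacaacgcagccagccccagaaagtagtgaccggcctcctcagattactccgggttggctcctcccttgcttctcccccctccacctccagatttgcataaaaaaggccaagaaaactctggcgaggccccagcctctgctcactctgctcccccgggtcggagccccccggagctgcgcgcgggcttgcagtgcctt
Frzb: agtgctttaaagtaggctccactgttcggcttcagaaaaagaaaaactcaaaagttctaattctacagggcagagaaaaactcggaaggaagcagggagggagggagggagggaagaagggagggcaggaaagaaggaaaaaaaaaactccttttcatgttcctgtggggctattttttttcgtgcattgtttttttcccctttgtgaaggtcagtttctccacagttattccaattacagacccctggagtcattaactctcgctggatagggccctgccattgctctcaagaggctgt
Dkk1: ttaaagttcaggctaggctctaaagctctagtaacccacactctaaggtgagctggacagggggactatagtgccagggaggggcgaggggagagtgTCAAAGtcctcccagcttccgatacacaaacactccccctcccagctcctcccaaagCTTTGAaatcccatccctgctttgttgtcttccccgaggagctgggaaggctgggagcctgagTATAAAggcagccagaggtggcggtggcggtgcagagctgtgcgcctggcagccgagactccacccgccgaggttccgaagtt

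The Sfrp2 window holds 1 match, GCGTG at position -162 with the start counted as 0, and 29.7% of the 33469 promoters in the reference hold these letters. The Frzb window holds none of the letters searched. Dkk1, which is itself known as a target of beta-catenin, has CTTTGA at positions -96 and, on the opposite strand, -153, and TATAAA at -33. CTTTGA is found in 16.1% of all promoters and TATAAA in 14.2%. The other shares are 19.3% for ACGTG and 7.33% for TGANTCA. G and C make up 65% of the Sfrp2 window, 58.3% of that of Dkk1 and 45.3% of that of Frzb. These matches are a description of the letters and not of binding.

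Frizzled-related genes differed in opposite directions between the groups. Sfrp4 was 8.20-fold higher in ShBNIP3, Sfrp2 was at 16.3% and Frzb at 20.2% of the control level, and Sfrp1 was at background. Of the 7 members measured, 1 was called higher and 2 lower in the fit over all probesets, where 15.5% of probesets were called. All 3 also differed by at least 2-fold, and 4.18% of probesets were both called and at least 2-fold different. These counts restate how the genes were chosen, and nothing is read from them. The median difference of the 7 members was -0.13, beside 0.02 over all probesets. That median is the value of Dkk1, a gene at background, and nothing is read from it. These are bulk samples, in which fewer cells of a type and less RNA per cell cannot be told apart.

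Sfrp4 is the frizzled-related gene best known from bone, where its loss thins the cortex. Its levels on ShCtrl arrays 1 to 5 were 11.91, 11.76, 11.59, 12.66 and 11.94. On ShBNIP3 arrays 6 to 10 they were 14.43, 14.91, 15.20, 15.02 and 15.50. Every ShBNIP3 array was thus above every ShCtrl array, with array 4 the highest of the controls and array 10 the highest of all. The group means were 11.97 ± 0.41 and 15.01 ± 0.40 (SD, n = 5 each), a difference of 3.04 (SE 0.22). It was 3.09 (SE 0.17) without ShCtrl array 4 and ShBNIP3 array 10, and between 2.91 and 3.21 when any 1 array was left out. Of all probesets, 99.9% had a smaller absolute difference. This place restates how the genes were chosen, and nothing is read from it.

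Sfrp2 is a frizzled-related protein made by many fibroblasts and mesenchymal cells. On ShCtrl arrays 1 to 5 it stood at 11.71, 11.83, 12.63, 11.42 and 12.19, and on ShBNIP3 arrays 6 to 10 at 8.29, 8.60, 9.28, 9.23 and 11.28. The groups did not overlap, but array 10 lay 2.43 above the mean of the other ShBNIP3 arrays and only just under control array 4. Group means were 11.95 ± 0.47 and 9.34 ± 1.17 (SD, n = 5 each), a difference of -2.62 (SE 0.46). Without arrays 4 and 10 the difference was -3.24 (SE 0.25), which is 9.44-fold in place of 6.14-fold.

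Frzb, also called sFRP3, is the member first named for cartilage. Its ShCtrl levels on arrays 1 to 5 were 14.72, 14.80, 13.29, 12.13 and 14.27, and its ShBNIP3 levels on arrays 6 to 10 were 11.35, 12.26, 11.28, 11.34 and 11.44. Here the groups overlapped, because control array 4 lay under ShBNIP3 array 7. The control arrays were spread widely, at 13.84 ± 1.13, and the ShBNIP3 arrays closely, at 11.53 ± 0.41 (SD, n = 5 each). The difference was -2.31 (SE 0.44), and -2.71 (SE 0.32) with no overlap without arrays 4 and 10. Leaving out any 1 array gave values from -2.74 to -2.07.

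Sfrp1 was under the background level of 6.50 to 6.78 on every array. Its levels ran from 4.65 to 4.90 (median 4.75) in ShCtrl and from 4.50 to 5.10 (median 4.68) in ShBNIP3. No fold is given for a gene at background in both groups. Its close relative Sfrp5, from the wider list of Wnt inhibitors, was at background as well, with means of 3.43 and 3.61.

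**Figure D1:**
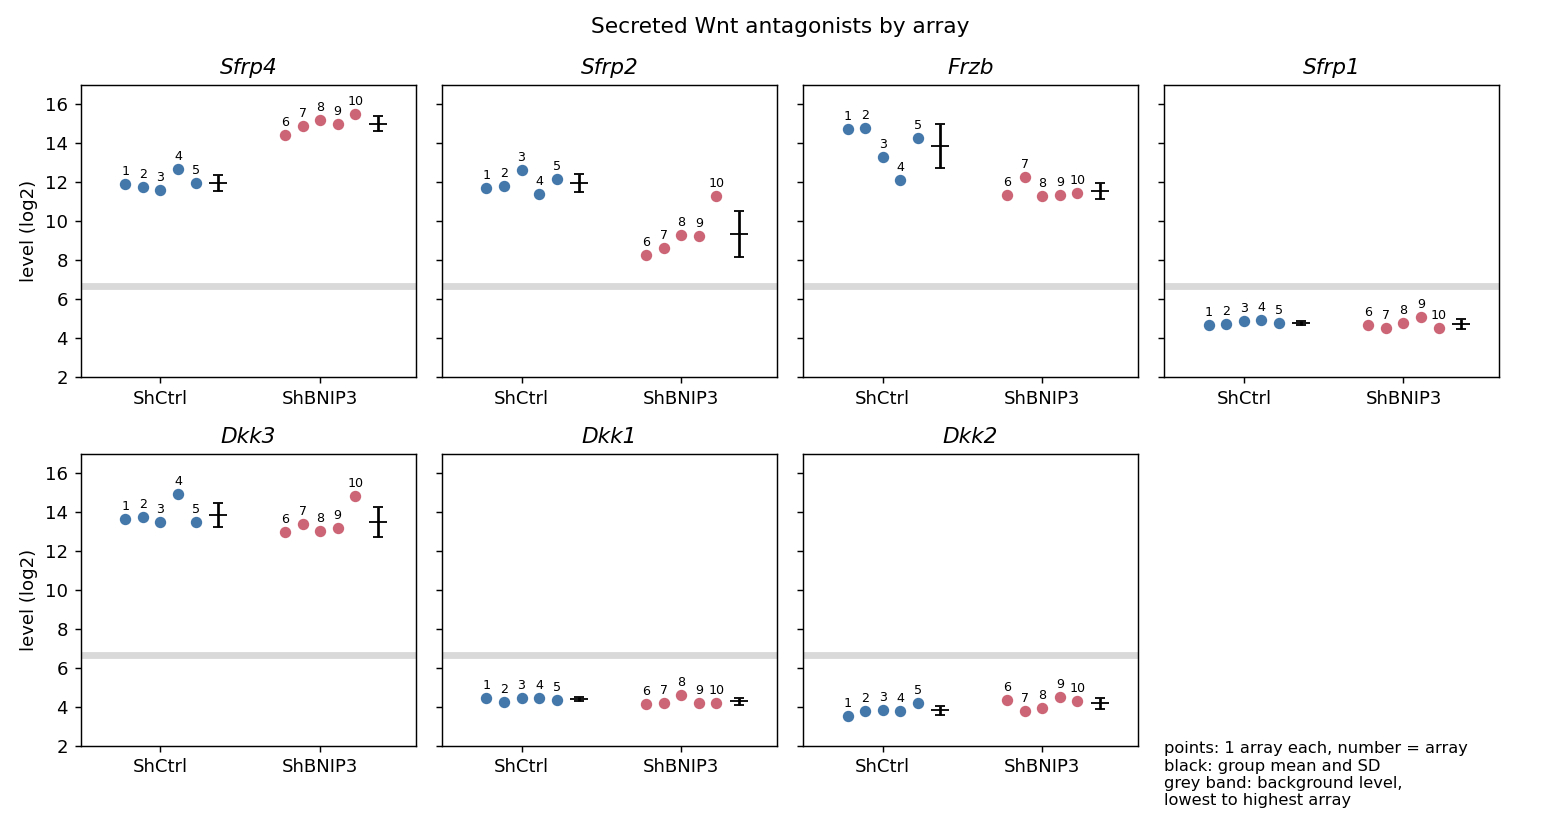
Level (log2, vertical axis) of each of the 7 measured antagonists on the 5 ShCtrl arrays (blue) and the 5 ShBNIP3 arrays (red), with array numbers, group mean and SD in black and the background level of the arrays as a grey band. Sfrp4 is higher on every ShBNIP3 array, Sfrp2 is lower on every one with array 10 at 11.28, Frzb overlaps through control array 4 at 12.13, and Sfrp1, Dkk1 and Dkk2 lie under the band. Levels of different genes are not comparable with each other.

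Among the Dickkopf genes, Dkk3 alone was above background. Dkk3, also known as REIC, is secreted by many mesenchymal cells. Its levels on ShCtrl arrays 1 to 5 were 13.67, 13.73, 13.51, 14.95 and 13.48, and on ShBNIP3 arrays 6 to 10 they were 12.97, 13.39, 13.01, 13.20 and 14.84. Both arrays that stood apart were the highest of their group, by 1.35 and 1.69 over the mean of the others, and the groups overlapped through array 10. With all arrays the difference was -0.38 (SE 0.36), about the size of its error. Without arrays 4 and 10 the means were 13.60 ± 0.12 and 13.14 ± 0.19 (SD, n = 4 each), a difference of -0.45 (SE 0.13), and the groups no longer overlapped. In that setting 4 of the 7 members had groups that did not overlap, where 23.6% of all probesets did, in place of 2 of 7 with all arrays, where 12.9% did. The number of members called was 4 there, with 19.9% of all probesets called. Nothing is read from these counts of members.

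Dkk1 and Dkk2, which block Lrp5 and Lrp6, were under background on all 10 arrays. Dkk1 ran from 4.26 to 4.46 (median 4.46) in ShCtrl and from 4.15 to 4.59 (median 4.21) in ShBNIP3. Dkk2 ran from 3.53 to 4.20 (median 3.77) and from 3.80 to 4.48 (median 4.27). A Dkk4 probeset and the Wnt inhibitors Sost, Sostdc1, Notum and Cer1, measured alongside, were at background in both groups too.

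**Figure D2:**
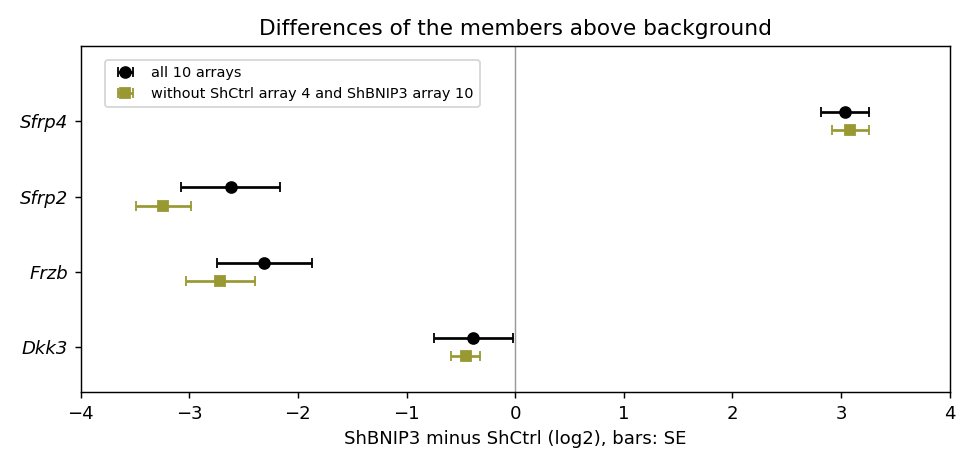
Difference between ShBNIP3 and ShCtrl (log2, horizontal axis; bars are SE) for the 4 antagonists above background, with all 10 arrays (circles) and without ShCtrl array 4 and ShBNIP3 array 10 (squares). Sfrp4 moves from 3.04 to 3.09, Sfrp2 from -2.62 to -3.24, Frzb from -2.31 to -2.71 and Dkk3 from -0.38 to -0.45, and the error of Dkk3 narrows from 0.36 to 0.13.

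The members differed in how they behaved within a group. Array 4 was the control with the highest Sfrp4 and Dkk3, 0.86 and 1.35 over the mean of the other controls, and with the lowest Sfrp2 and Frzb, -0.67 and -2.14 from that mean. For Sfrp4, Sfrp2 and Frzb, array 4 thus lay toward the ShBNIP3 arrays, although its Bnip3 level was the highest of all. Array 10 was 2.43 over the other ShBNIP3 arrays for Sfrp2 and 1.69 over them for Dkk3, but 0.61 over them for Sfrp4 and -0.11 from them for Frzb. For Sfrp2 that is toward the controls and for Sfrp4 away from them.

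The genes whose profile over the 10 arrays was most like that of Sfrp2, the member with the widest range, were Olfm1, Tp53inp2, Yipf2, B4galt1 and Pcp4l1. Likeness was the root mean square distance between log2 profiles centred on their own means, and it ran from 0.45 for Olfm1, a secreted olfactomedin-domain protein, to 0.64 for Pcp4l1. The same measure was then taken for the other members above background, which was decided after their values were seen. For Sfrp4 the nearest were Slpi (0.31), a secreted protease inhibitor, Slc43a2 (0.31), the collagenase Mmp13 (0.36), Fjx1 (0.42) and the gelatinase Mmp9 (0.44). For Frzb they were Akr1c15 (0.40), the insulin-like growth factor binding protein Igfbp4 (0.41), the mineralocorticoid receptor Nr3c2 (0.45), the lipid synthesis factor Srebf1 (0.46) and Igfbp5 (0.47). Dkk3 was nearest to Cited2 (0.09), a hypoxia-induced co-regulator, Mapre2 (0.14), Efna5 (0.17), Bltp3b (0.19) and Akap5 (0.22).

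**Figure D3:**
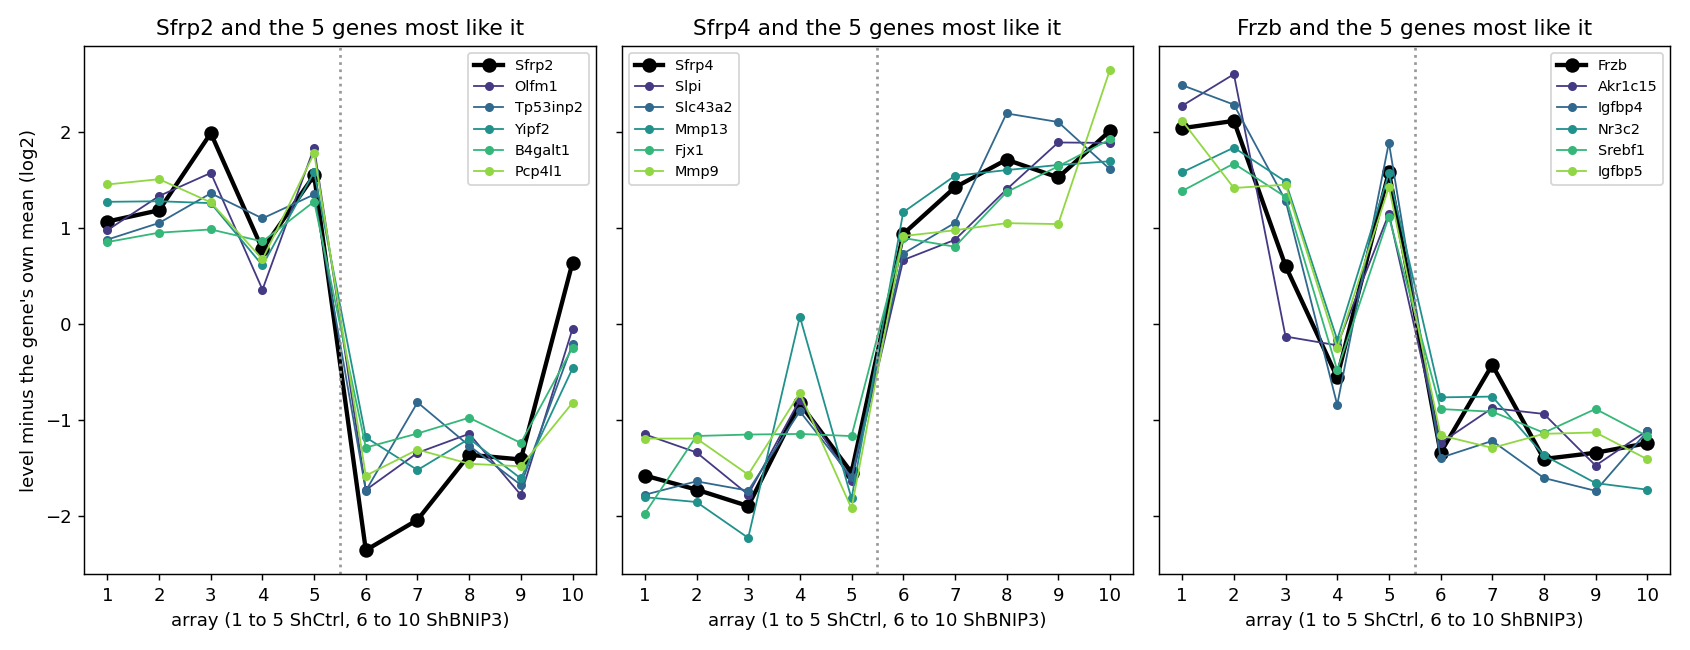
Level minus the gene's own mean (log2, vertical axis) on arrays 1 to 10 for Sfrp2, Sfrp4 and Frzb (black) and the 5 named genes nearest to each (colours); the dotted line separates ShCtrl from ShBNIP3. Sfrp2 is the black line with the high value on array 10, and the Frzb panel shows control array 4 under the other controls for every line.

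The rest of the pathway was described from lists that do not hold the 8 antagonists. Of the 14 other Wnt inhibitors measured, 0 rose and 1 fell, 10 were at background, and the median difference was 0.06. The share called was 7.14%, beside 15.5% of all probesets. In the fit of the brighter 50% of probesets, 1 of the 4 list genes it held was called, beside 3909 of 11594 probesets. The gene that fell was Igfbp4, which binds insulin-like growth factors and also Lrp6 and Fzd8. It went from 10.59 ± 1.35 to 7.75 ± 0.26 (SD, n = 5 each), a difference of -2.84 (SE 0.50, limma adjusted p = 0.0019). Like Frzb, it was low on control array 4 (8.32), and its difference was -3.47 without arrays 4 and 10.

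Ligand genes were mostly at background. Of 17 Wnt genes measured, 16 were at background in both groups. The exception was Wnt5a, named after its values were seen, at background in ShCtrl (5.88 ± 0.29) and at 6.82 ± 0.82 in ShBNIP3 (SD, n = 5 each), which is at least 1.13-fold higher (limma adjusted p = 0.070). Wls, the carrier that takes Wnt proteins to the cell surface, rose by 0.75 (SE 0.15, limma adjusted p = 0.0041), and Porcn, which attaches their lipid, differed by -0.15 (SE 0.34, limma adjusted p = 0.85). In the list of ligands and secretion 1 of 19 genes rose and 0 fell, which is 5.26% called, beside 15.5% of all probesets. In the fit of the brighter 50% of probesets, 2 of the 3 list genes it held were called, beside 3909 of 11594 probesets.

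Receptors, co-receptors and R-spondins, the surface side of the pathway, had 1 of 20 genes up and 6 down. That is 35% called, where 15.5% of all probesets were. The median difference was -0.29 beside 0.02 over all probesets. Most of the list, 17 of 20 genes, was above background. In the fit of the brighter 50% of probesets, 7 of the 17 list genes it held were called, beside 3909 of 11594 probesets. Rspo1, a secreted enhancer of Wnt signalling that acts through Lgr receptors, fell 4.60-fold (log2 -2.20, SE 0.14, limma adjusted p = 9.52e-07), from between 12.63 and 12.79 on the control arrays to between 10.09 and 10.85. Of the Frizzled receptors 8 of 10 were above background, 3 fell and 0 rose. Fzd8 fell 4.12-fold (limma adjusted p = 0.0080), Fzd2 2.01-fold (limma adjusted p = 0.013) and Fzd6 1.81-fold (limma adjusted p = 0.0090). Fzd8, as Frzb, was low on control array 4, at 10.67 against 12.50 to 13.06 on the other controls.

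The co-receptor Lrp6, the binding site of Dkk1 and Dkk2, fell 2.08-fold (log2 -1.06, SE 0.18, limma adjusted p = 0.0018), while Lrp5 differed by 0.04 (SE 0.19, limma adjusted p = 0.93). Whether these differences differ from each other was not tested. Lgr5, an R-spondin receptor, fell 2.75-fold, with a limma adjusted p of 0.047 that exceeded 0.05 in 8 of the 10 fits that left out 1 array (highest 0.12). Ryk, a Wnt receptor with a kinase-like domain, was the gene that rose, by 0.64 (SE 0.11, limma adjusted p = 0.0018), and it is named after its values were seen. Without arrays 4 and 10, 2 genes rose and 10 fell, with a median of -0.49, and those added, named after their values were seen, were Fzd5 (higher), Fzd4, Fzd7, Lgr4 and Ror1 (lower). In that setting 19.9% of all probesets were called.

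**Figure D4:**
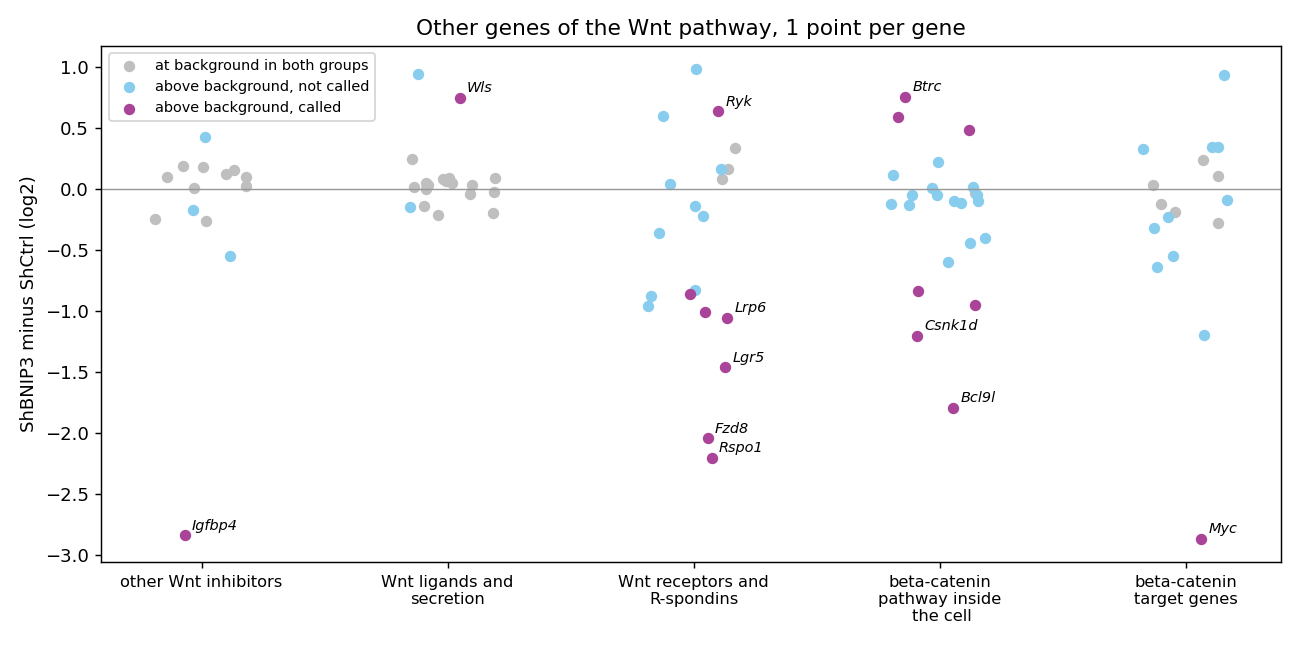
Difference between ShBNIP3 and ShCtrl (log2, vertical axis) for each measured gene of 5 lists of the Wnt pathway, none of them among the 8 antagonists; grey points are at background in both groups, light blue points were not called and purple points were called (limma adjusted p under 0.05). Rspo1 and Fzd8 are the lowest receptor-side points, at -2.20 and -2.04, and Wnt ligand genes are nearly all grey.

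Inside the cell, 3 of 23 genes of the beta-catenin pathway rose and 4 fell, with a median difference of -0.10. The share called was 30.4%, beside 15.5% of all probesets. Most of the list, 22 of 23 genes, was above background. In the fit of the brighter 50% of probesets, 8 of the 22 list genes it held were called, beside 3909 of 11594 probesets. Without arrays 4 and 10 the number that fell was 5, with Tle3 added, named after its values were seen. In that setting 19.9% of all probesets were called. Bcl9l, a co-activator of beta-catenin, fell 3.46-fold (limma adjusted p = 9.43e-05), the kinase Csnk1d 2.30-fold (limma adjusted p = 1.13e-05) and Gsk3a, a kinase of the complex that degrades beta-catenin, 1.94-fold (limma adjusted p = 0.00016). The repressor Tcf7l1 was above background on only 3 arrays, all of ShCtrl, and under it on every ShBNIP3 array. It was at least 1.17-fold lower (limma adjusted p = 0.027, and up to 0.0706 when 1 array was left out, with 4 of 10 such fits over 0.05). Btrc, which tags beta-catenin for destruction, rose by 0.76 (SE 0.14, limma adjusted p = 0.0033) and the scaffold Apc by 0.59 (SE 0.12, limma adjusted p = 0.0061). Ctnnb1, the beta-catenin gene, rose by 0.49 (SE 0.13, limma adjusted p = 0.023, and up to 0.058 when 1 array was left out, with 4 of 10 such fits over 0.05).

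Genes that beta-catenin is known to switch on had 0 of 17 up and 1 down, which is 5.88% called, beside 15.5% of all probesets. In the fit of the brighter 50% of probesets, 2 of the 11 list genes it held were called, beside 3909 of 11594 probesets. The one that fell was Myc, 7.28-fold (SE 0.21 on the log2 scale, limma adjusted p = 2.47e-06), a gene that many other pathways control as well. Axin2, the target most used as a readout of Wnt activity, was at background in both groups. Nkd1 differed by -0.09 (SE 0.14, limma adjusted p = 0.77) and Lef1, a factor that is also a target, by -0.05 (SE 0.21, limma adjusted p = 0.92). Without arrays 4 and 10, 2 targets rose and 3 fell, the added ones, also named after the fact, being Ccnd1 and Cd44 (higher) and Prickle1 and Snai2 (lower). There 19.9% of all probesets were called.

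Markers of other cell types moved in part with the groups. The shares called were 50% of annulus fibrosus and fibroblast markers and 40% of smooth muscle and pericyte markers. Of all probesets 15.5% were called, and 19.9% without arrays 4 and 10. In the fit of the brighter 50% of probesets, 3909 of 11594 were called. Above background were 9 of 10 genes of the fibroblast list and 7 of 10 of the muscle and pericyte list. Of 10 annulus fibrosus and fibroblast markers 1 rose and 4 fell, among them Col3a1 (1.64-fold lower, limma adjusted p = 0.00062) and Thy1 (1.71-fold lower, limma adjusted p = 0.0053), and Tnmd was at background. The one that rose was Postn (2.43-fold, limma adjusted p = 0.033, and up to 0.082 when 1 array was left out, with 7 of 10 such fits over 0.05). Scx, Dcn, Lum and Pdgfra, named after their values were seen, were above background and not called, with differences of -0.23, 0.22, 0.0007 and 0.52. The counts up and down were 1 and 3 without arrays 4 and 10. The log2 of the summed level of all 10 was 20.01 to 20.11 in ShCtrl and 19.65 to 19.91 in ShBNIP3. Here and below, such a sum adds values on the linear scale. Its brightest genes set it, and it is no measure of the number of cells. Of 10 smooth muscle and pericyte markers 1 rose and 3 fell, with Cspg4 (5.88-fold lower, limma adjusted p = 4.66e-05) and Des (5.79-fold lower, limma adjusted p = 5.32e-05) in front of the falls, and Myh11, Rgs5 and Notch3 were at background. Mcam rose from background, by at least 1.89-fold (limma adjusted p = 0.00019). Acta2, Cnn1 and Tagln, also named after the fact, were not called, with differences of -0.55, -0.41 and 0.19. Without arrays 4 and 10 as many rose as fell, 3 each, with Myh11 (at background) and Tagln added to the rises. Their summed level was 15.66 to 16.42 and 14.90 to 15.31. Their part in the differences of Sfrp2, Sfrp4 and Frzb was not tested.

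Of 12 nucleus pulposus markers 0 rose and 3 fell, Car3 (2.45-fold), Ncam1 (2.09-fold) and Col2a1 (1.59-fold), with limma adjusted p-values of 0.0048, 0.0063 and 0.013, and the summed level was 16.46 to 16.88 in ShCtrl and 15.32 to 16.11 in ShBNIP3. Without arrays 4 and 10, where 19.9% of all probesets were called, the number that fell was 5. Those added, named after their values were seen, were Acan and Car12. Car12 was above background on only 2 arrays, both of ShCtrl, and under it on every ShBNIP3 array. Of 9 cartilage markers 0 rose and 2 were called lower, 6 were at background in both groups (Matn1, Chad, Cytl1, Col9a1, Comp and Epyc), and the summed level was 12.76 to 13.48 and 12.04 to 13.15. One of the calls, Comp, was thus within the background range. The other, Cilp, was above background on only 2 arrays, both of ShCtrl, and under it on every ShBNIP3 array (at least 1.12-fold lower, limma adjusted p = 0.0054). Prg4, named after its values were seen and above background on only 3 arrays, was called higher as well without arrays 4 and 10. Of 7 bone markers 1 rose, Spp1 (1.65-fold, limma adjusted p = 0.00045), while Sp7, Bglap, Alpl and Dmp1 were at background, and the summed level was 17.94 to 18.12 and 18.66 to 18.86. That sum is nearly the level of Spp1 alone, at 17.93 to 18.12 and 18.66 to 18.85. Of 12 macrophage and leukocyte markers 3 were called higher and 0 lower, Cd68 (2.83-fold, limma adjusted p = 0.0018), Cd14 (2.17-fold, limma adjusted p = 0.0070) and Cd53, the last within the background range. Ptprc, Csf1r and Adgre1 were among the 10 at background in both groups, and the summed level of all 12 was 11.02 to 11.76 and 11.96 to 13.24. That sum mostly follows Cd14, at 10.83 to 11.57 and 11.73 to 13.14. All 9 endothelial markers were at background, so their summed level of 7.58 to 7.81 and 7.71 to 7.86 adds only background values. The shares called were 25% (nucleus pulposus), 22.2% (cartilage), 14.3% (bone), 25% (macrophages and leukocytes) and 0% (endothelium), beside 15.5% of all probesets. In the fit of the brighter 50% of probesets, 3909 of 11594 were called. The part of these cell types in the differences of the antagonists was not tested.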

How the data were processed

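RNA of 5 ShCtrl and 5 ShBNIP3 samples was hybridised to whole-transcript arrays. The deposited values are log2 expression values that the authors made by sst-rma normalization, per the labels, with the Transcriptome Analysis Console named in the submitters' processing notes (version not given in the sources used here). Filters on detection and fold change that the labels name were not applied. Groups came from the titles.

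Of 24834 probesets, 1646 controls were left out and 23188 tested; 15049 of these carry 1 gene symbol, 0 several and 8139 none. All 15049 Entrez identifiers matched the RefSeq table of GRCr8. A gene with several probesets was taken by the one with the highest mean. ShBNIP3 was compared with ShCtrl with limma 3.58.1 (lmFit, eBayes) in R 4.3.3, with Benjamini-Hochberg adjustment over all probesets and a threshold of 0.05. The fit was tested on simulated data. Background was the 95th percentile of the 23 background probesets of each array; a gene was at background in a group when under it on every array of the group. A group at background gives a fold of "at least" the brighter mean over, per array, the higher of the background level and the measured value. Bnip3 also had an exact permutation test. The number of arrays limits the precision.

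The members, gene lists and motifs were chosen with earlier results of these data known. Genes named were Bnip3, the members, at most 6 called genes per pathway list and 4 per marker list by size, Axin2, Lef1, Tcf7, Nkd1, Ctnnb1, Lrp5, Lrp6 and Sfrp5, and the 5 genes nearest to the member with the widest range; Tcf7 has no named probeset. Alternatives were leaving out arrays, quantile normalization, median centring, a trended and robust variance, the brighter 50% of probesets and a 2-fold threshold.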

Additional observations from a re-analysis of the deposited data

Results flagged for a closer look

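In 46 genes with 5 arrays per group, 11 of 92 groups held an array whose gap to the nearest other was large for the range of its group. For a single group taken alone, chance gives about 1 in 20. Most of these genes were named because they were called, and all share the same arrays, so the count is not set against chance. Dkk3 had one in both groups, with 14.95 on ShCtrl array 4 and 14.84 on ShBNIP3 array 10. Frzb had 12.26 on ShBNIP3 array 7, where the other ShBNIP3 arrays lay between 11.28 and 11.44. Dkk1, at background throughout, had 4.59 on ShBNIP3 array 8. On ShCtrl array 4, Fzd8 (10.67) and Fzd2 (13.17) were low for their group, and Bcl9l (12.45), Postn (9.20) and Cilp (8.07) were high. Gsk3a was low on ShCtrl array 1 (12.87) and Btrc on ShBNIP3 array 10 (10.66).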

How the results depend on the processing

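No paired analysis was possible because the array numbers in the titles are not shared between the groups. The directions of Sfrp2, Sfrp4, Frzb and Dkk3 were kept in every fit run on them. The number of members called was 3 in each, where 15.5% of all probesets were called with all arrays. The exception was the fit without ShCtrl array 4 and ShBNIP3 array 10, where it was 4, with Dkk3 added, and 19.9% of all probesets were called. The member counts in all these fits restate how the genes were chosen, and nothing is read from them. The count over all probesets was 3590, 969 with a change of at least 2-fold, and 2746 to 3960 with 1 array left out. Without arrays 4 and 10, 2 other Wnt inhibitors were called in place of 1, 12 receptors and R-spondins in place of 7 and 5 beta-catenin targets in place of 1. The added inhibitor, Shisa2, was at background in both groups. With quantile normalization, median centring or the brighter 50% of probesets 2 targets were called, and with the brighter 50% 2 genes of ligands and secretion in place of 1. With 1 array left out the calls ranged from 1 to 2 for ligands and secretion, 6 to 9 for receptors, 5 to 8 inside the cell and 1 to 3 for targets, other inhibitors stayed at 1, members stayed at 3, and the Bnip3 difference ranged from -3.53 to -2.87. Differences then ranged from -3.11 to -2.36 for Sfrp2 and -0.72 to -0.11 for Dkk3. Every measured member has 1 probeset, so averaging probesets changes nothing and was not run. At the 99th percentile of background the same 3 members were at background. With 5 arrays per group and the members under background, a change in Sfrp1, Dkk1 or Dkk2 was not measurable here.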
